A study of Mus musculus with 6 samples.

Results

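The genes described here move fatty acids across the plasma membrane of liver cells, carry them through the cytosol and attach coenzyme A to them. The 10 genes were chosen by name, with earlier results of these data known, from 51912 genes in the deposited table. All 10 were found there once each. They are the surface receptor Cd36, the transport proteins Slc27a2 and Slc27a4, the fatty acid binding proteins Fabp1, Fabp2, Fabp4 and Fabp5, the acyl-CoA binding protein Dbi and the acyl-CoA synthetases Acsl3 and Acsl5. Liver RNA came from C57/B6 mice at 21 days of age. In the TCS group the mothers received Triclosan, an antimicrobial additive, at 120 ppm, which the methods place in the chow through pregnancy and lactation and the sample labels place in the breastmilk. In the vehicle group the mothers received the same chow with the solvent alone, DMSO in water, and the pups regular breastmilk. There were 3 RNA samples per group, each pooled from 3 mice, and the methods describe male pups from several litters without saying which litters went into which pool. The spread between samples is therefore a spread between pools, and p-values measure no more than that.

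A fatty acid that reaches a hepatocyte can cross the membrane with the help of CD36 or of the fatty acid transport proteins of the SLC27 family, several of which are themselves acyl-CoA synthetases of the endoplasmic reticulum or peroxisome. Inside the cell fatty acid binding proteins hold the free acid in solution, long-chain acyl-CoA synthetases (ACSL) turn it into acyl-CoA, and acyl-CoA binding protein carries that product to the enzymes that oxidize it, elongate it or build it into glycerolipids. In suckling mice the liver receives a diet rich in fat, and Fabp1, the liver form, is among its most abundant messages. PPARα, a nuclear receptor that fatty acids activate, is known to drive Fabp1 in mouse liver through an element close to the start of the gene.

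Since PPARα acts on this element type, a pair of upstream regions is shown, those of the members in which the letters were found. The peroxisome proliferator response element was searched on both strands as a direct repeat of AGGTCA with 1 free base between the copies, up to 2 letters of the repeat being allowed to differ, in the 250 bases upstream of each RefSeq start (build GRCm38.p6). Of the 10 genes, 8 had such a window, and the search matched in Fabp1 and Cd36, whereas 3.24% of all 32851 windows held a match. Fabp4 and Fabp5 had no entry in the table of windows. The capitals below mark the match and, in Fabp1, also a TATA box (TATAAA), which 12.4% of all windows hold. The first lies at chr6:71199629-71199878 on the plus strand and the second at chr5:17835897-17836146 on the minus strand, and each runs 5′ to 3′ towards the start of the gene.
Fabp1: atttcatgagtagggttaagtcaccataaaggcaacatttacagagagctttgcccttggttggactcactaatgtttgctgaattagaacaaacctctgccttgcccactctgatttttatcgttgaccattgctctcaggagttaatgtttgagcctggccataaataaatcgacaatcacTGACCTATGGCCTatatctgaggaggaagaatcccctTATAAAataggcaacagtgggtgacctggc
Cd36: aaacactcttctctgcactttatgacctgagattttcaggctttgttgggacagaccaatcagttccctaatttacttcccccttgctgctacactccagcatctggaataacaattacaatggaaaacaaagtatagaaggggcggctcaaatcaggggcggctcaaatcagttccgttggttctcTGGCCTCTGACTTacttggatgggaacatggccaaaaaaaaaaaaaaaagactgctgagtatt

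In Fabp1 the match TGACCTATGGCCT, read on the opposite strand, differed from the searched letters at 1 base and ended 55 bases before the start, and with 1 difference allowed 0.484% of all windows held a match. In Cd36 the match TGGCCTCTGACTT differed at 2 bases and ended 51 bases before the start. Distances are counted from the RefSeq starts. The GENCODE gene models of both genes begin further upstream. That of Fabp1 begins at 71199827, just after the match and before the TATA box, so the match lies nearer to that start. That of Cd36, on the minus strand, begins at 17888801. The Cd36 window, from 17835897 to 17836146, therefore lies inside this gene model, far from its start. Only the windows shown were searched. The upstream windows of the members differed widely in base composition, from 35.6% G and C in Fabp2 to 75.6% in Acsl3, against a median of 52.4% over all windows. The GC box GGGCGG was present in the windows of Acsl3, Cd36, Slc27a2 and Slc27a4 and in 32.7% of all windows, both strands counted. These matches describe letters and were not set against binding data.

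Abundance was given by the authors as TPM, a share of each sample's transcripts corrected for gene length, so levels can be compared between genes. The log2(TPM + 1) of a gene was tested with limma if 3 or more samples held 1 TPM or more of it, as was so for 13325 genes, all 10 members among them. P was adjusted by Benjamini-Hochberg over these 13325, and an adjusted p under 0.05 was the threshold. Fold changes of TPM + 1 lie nearer to 0 than those of TPM for the least abundant members. Over all genes tested the log2 fold change, TCS over vehicle, had a median of 0.13, and 74.8% of the genes lay above 0, so each member is also read against that median. The depth of reads behind TPM is unknown, and no counting error is given.

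Before the members, the tissue was read from its markers. The summed TPM of 9 hepatocyte markers, of which Alb and Ahsg were the most abundant, ran from 148900 to 152200 in vehicle and from 125800 to 130200 in TCS, so the sums did not overlap. In whole liver, fewer cells that carry a transcript and less of it per cell cannot be told apart. Alb made up most of these sums, at 95700, 107000 and 103000 TPM in vehicle and 89900, 89700 and 87600 TPM in TCS. Its log2 fold change was -0.19 (adjusted p = 0.251 from limma). Of the 9, 0 passed limma's threshold, with 5 lower and 0 higher at an unadjusted p under 0.05. Among all genes tested 3.5% were lower and 19.5% higher at that p. Pancreatic acinar transcripts stood out in a library of each group, with summed TPM over 8 genes of 712 in vehicle 3 and 750.3 in TCS 2, against 234.5 and 98.8 in the other vehicle samples and 10.5 and 73.1 in the other TCS samples. Skeletal muscle transcripts, a list added after the values of Fabp3 were seen, summed to 305, 9.51 and 50.3 TPM in vehicle and 90.7, 450.9 and 355 TPM in TCS. The libraries also went against the sex given in the methods, which name male pups alone. Xist, which is made from the inactive X chromosome of females, was at 46.4, 1.80 and 88.3 TPM in vehicle and at 0.0144, 98.7 and 44.0 TPM in TCS, and the Y-linked Ddx3y was at 24.6, 34.7 and 12.2 TPM in vehicle and at 31.9, 11.6 and 24.8 TPM in TCS. Transcripts of both sexes were thus present in 4 of the 6 pools, in uneven amounts, and each group had 1 sample of low, 1 of middle and 1 of high Xist. Vehicle 3 and TCS 2 were the highest of their groups in Xist as well as in acinar transcripts. Results are therefore also given without this pair of libraries, with Xist as a covariate, and within samples of like Xist level, all of which were chosen after seeing the data.

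**Figure D1:**
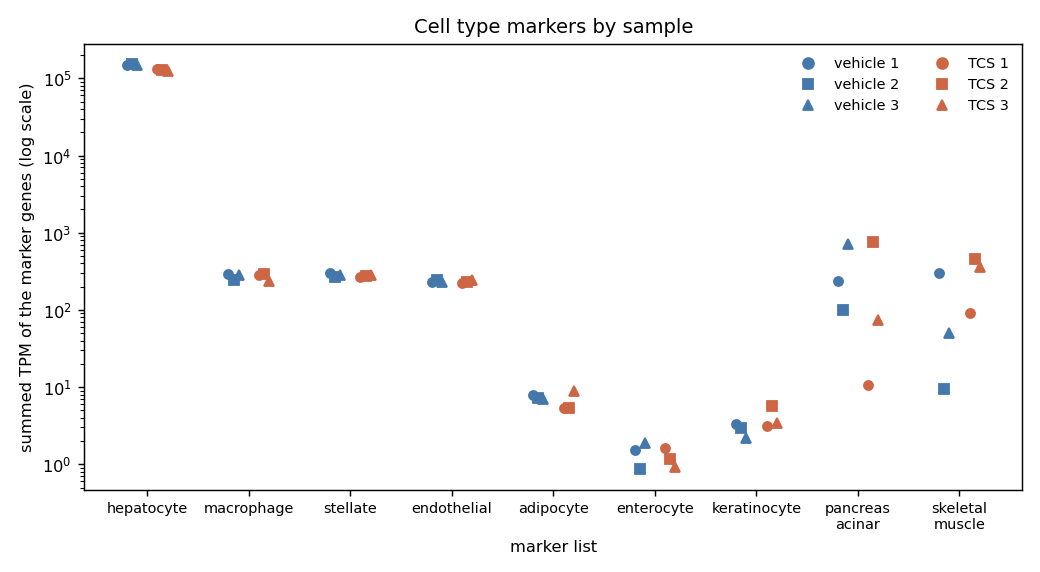
Points give the summed TPM of the markers of each cell type in each of the 6 samples on a log axis, in blue for vehicle and orange for TCS. The acinar sums reach 712 TPM in vehicle 3 and 750.3 TPM in TCS 2, the muscle sums run from 9.51 to 450.9 TPM, and the hepatocyte sums of the TCS samples lie below those of the vehicle samples.

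**Figure D2:**
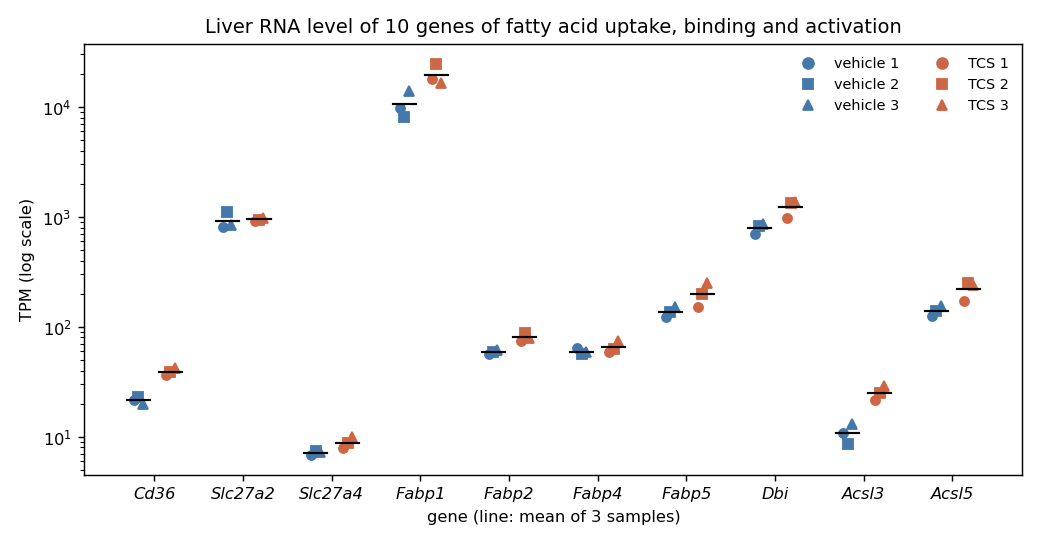
Points give the TPM of each of the 10 genes in each of the 6 samples on a log axis, in blue for vehicle and orange for TCS, and lines give the mean of 3 samples. Levels span from 6.80 TPM for Slc27a4 to 24800 TPM for Fabp1, and the orange points lie above the blue points in 8 of the 10 genes.

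All 10 genes had a positive log2 fold change in TCS livers, and the median over them was 0.56, against 0.13 over all genes tested. Cd36 was the member that passed the threshold, so 1 of 10 was called as higher and 0 as lower by limma, where 0.0826% and 0.0901% of all genes tested were called. At an unadjusted p under 0.05 the counts were 8 higher and 0 lower among the members, and 19.5% and 3.50% among all genes. In 8 of the 10 all TCS samples exceeded all vehicle samples, as they did in 25.1% of the genes tested, and in 0 of the 10 all fell below them, against 4.61%. Rescaling TPM by median-of-ratios factors, which brings the median gene to 0, left 6 of the 10 without overlap, against 11.6% of all genes. The members, and the lists below, were chosen with earlier results of these data known. Setting them beside the shares of all genes is therefore a description and no test.

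Uptake is described first. Cd36, the receptor that binds long-chain fatty acids at the cell surface (ENSMUSG00000002944, chromosome 5 of GRCm38 from 17781690 to 17888801, minus strand), stood at 21.5, 23.1 and 19.8 TPM in the vehicle samples and at 36.4, 38.8 and 42.1 TPM in the TCS samples. The lowest TCS sample was 1.58 times the highest vehicle sample, and the samples of a group lay within a narrow range. The mean rose 1.82-fold, from 21.5 ± 1.65 to 39.1 ± 2.86 TPM (SD, n = 3 each). Limma gave a log2 fold change of 0.84 with a standard error of 0.09 and a 95% interval of 0.62 to 1.05 (adjusted p = 0.0384), which is 0.71 above the median gene. The call ended with any 1 of the 6 samples left out (adjusted p from limma between 0.0504 and 0.169), after rescaling by median-of-ratios factors (adjusted p = 0.0583) and with Xist as a covariate (adjusted p = 0.0764). The log2 fold change stayed between 0.69 and 0.89 over the 17 alternatives tried, and was 0.79 without vehicle 3 and TCS 2 (adjusted p = 0.236 from limma).

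Slc27a2 and Slc27a4 did not follow Cd36 past the threshold. Slc27a2 encodes FATP2, a transporter and very-long-chain acyl-CoA synthetase of liver and kidney (ENSMUSG00000027359, chromosome 2 from 126552407 to 126588243, plus strand), and its values were 806, 1110 and 851 TPM in vehicle and 921, 944 and 981 TPM in TCS. The TCS samples all lay inside the range of the vehicle samples. The log2 fold change was 0.05, with a 95% interval of -0.25 to 0.36 (adjusted p = 0.809 from limma), and it turned to -0.10 after rescaling by median-of-ratios factors and to -0.04 without vehicle 1. Slc27a4, the FATP4 form that is prominent in intestine and skin (ENSMUSG00000059316, chromosome 2 from 29802634 to 29817522, plus strand), was the least abundant member, at 6.80, 7.45 and 7.27 TPM in vehicle and 7.91, 8.74 and 9.87 TPM in TCS. Its groups did not overlap, but the lowest TCS sample exceeded the highest vehicle sample by a factor of 1.06 and after rescaling by median-of-ratios factors they did overlap. Its log2 fold change was 0.26 (adjusted p = 0.194 from limma). The 95% interval of 0.02 to 0.51 includes the 0.13 of the median gene.

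Within the SLC27 family, Slc27a2 held 65.3% to 68.8% of the summed TPM of the 6 genes in vehicle and 68.9% to 70.2% in TCS. Most of the remainder belonged to Slc27a5, a bile acid and very-long-chain acyl-CoA synthetase of the liver, at 392, 488 and 438 TPM in vehicle and 401, 404 and 397 TPM in TCS. The total of the family was 1211 to 1613 TPM in vehicle and 1337 to 1397 TPM in TCS, the TCS range lying within the vehicle range.

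**Figure D3:**
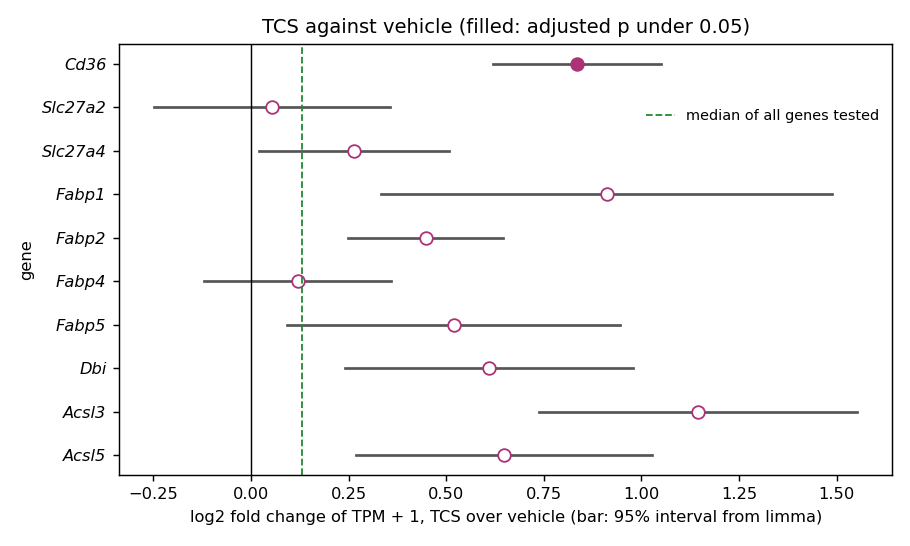
Circles give the log2 fold change of TPM + 1, TCS over vehicle, of each of the 10 genes, bars its 95% interval from limma, and the dashed line the median of all genes tested (0.13). Cd36 is the filled circle, at an adjusted p of 0.0384, and the intervals of Slc27a2 and Fabp4 include 0.

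Among the binding proteins, Fabp1 far exceeded the rest. Fabp1, the cytosolic fatty acid binding protein of hepatocytes (ENSMUSG00000054422, chromosome 6 from 71199827 to 71205023, plus strand), was listed at 9800, 8040 and 13900 TPM in vehicle and at 17900, 24800 and 16400 TPM in TCS. Both groups were widely spread, with vehicle 3 and TCS 2 the highest of their groups, and the lowest TCS sample was 1.18 times the highest vehicle sample. Its share of all TPM was 0.980%, 0.804% and 1.39% in vehicle and 1.79%, 2.48% and 1.64% in TCS. By level it ranked 20, 20 and 9 among all genes in the vehicle samples and 6, 3 and 7 in the TCS samples. The ratio of the group means was 1.86 and the log2 fold change 0.91 with a standard error of 0.24 (95% interval 0.33 to 1.49), a difference that did not pass the threshold (adjusted p = 0.118 from limma). The 2 libraries highest in Fabp1 within their groups were also those highest in acinar transcripts and in Xist, and without them the log2 fold change of Fabp1 was 0.95.

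Fabp2, the form named for the intestine (ENSMUSG00000023057, chromosome 3 from 122895072 to 122899506, plus strand), stood at 56.2, 58.9 and 61.2 TPM in vehicle and at 74.6, 88.4 and 79.0 TPM in TCS. The samples of each group lay close together and the groups were separated by a factor of 1.22. Its log2 fold change was 0.45 with a standard error of 0.08 (95% interval 0.25 to 0.65), and the adjusted p of 0.0866 from limma missed the threshold. Markers of enterocytes, the other cells that make Fabp2, summed over 8 genes to 0.860 to 1.89 TPM in vehicle and 0.932 to 1.63 TPM in TCS, with Cdx1 and Cdx2 listed at 0 in every sample and Vil1 and Slc5a1 the most abundant.

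Fabp4, the form of adipocytes, macrophages and capillary endothelium (ENSMUSG00000062515, chromosome 3 from 10204088 to 10208576, minus strand), was measured at 63.6, 56.5 and 58.8 TPM in vehicle and at 59.3, 62.3 and 73.7 TPM in TCS. The groups overlapped, and TCS 3 alone lay above all vehicle samples. The log2 fold change of 0.12 (95% interval -0.12 to 0.36, adjusted p = 0.486 from limma) was at the median gene, and it was -0.03 after rescaling by median-of-ratios factors. Marker sums of the cells known for Fabp4 also overlapped between the groups. They were 6.98 to 7.79 TPM in vehicle and 5.31 to 8.84 TPM in TCS for 8 adipocyte genes, led by Adrb3 and Cfd. They were 227 to 241 and 222 to 244 TPM for 9 endothelial genes, led by Clec4g and Stab2, and 248 to 296 and 236 to 291 TPM for 8 macrophage genes, led by Clec4f and C1qa. A list of 8 stellate cell genes, led by Dcn and Reln, gave sums of 265 to 297 and 266 to 286 TPM, of which Dcn made up most. Its members went both ways, with 0 past limma's threshold, 3 higher (Col1a1, Col1a2 and Pdgfrb) and 1 lower (Dcn) at an unadjusted p under 0.05, and a median log2 fold change of 0.33. These genes are named after their values were seen. The corresponding unadjusted counts were 0 higher and 1 lower for adipocyte genes, of which 2 were tested, 1 and 1 for endothelial genes and 0 and 0 for macrophage genes. The shares among all genes tested were 19.5% higher and 3.5% lower. Adipocyte sums hide single genes, also named after their values were seen. Adipoq, Plin1, Cidea, Cfd and Lep were highest in TCS 3, the sample highest in Fabp4. Adipoq was at 0.793 TPM there and at 0.512 TPM or less elsewhere. Plin1 was at 0.393 TPM and Lep at 0.0245 TPM in TCS 3. Of the genes highest in that sample, only Cfd passed the filter on low values. Adrb3, Cidec and Retn were not highest there. Whether adipocyte transcripts play a part in Fabp4 was not tested.

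Fabp5, the epidermal form (ENSMUSG00000027533, chromosome 3 from 10012548 to 10016607, plus strand), was at 124, 137 and 150 TPM in vehicle and at 153, 199 and 248 TPM in TCS. The groups met almost end to end, as TCS 1 was 1.02 times vehicle 3, and they overlapped after rescaling by median-of-ratios factors. The log2 fold change was 0.52 with a standard error of 0.18 (95% interval 0.09 to 0.95, adjusted p = 0.166 from limma). That interval includes the 0.13 of the median gene. The pseudogenes Gm6166 and Gm14328 share 98.3% and 97.3% of their bases with Fabp5 over 409 and 408 bases of transcript, and both were listed at 0 TPM in all samples. Of 6 keratinocyte markers Krt1 was listed at 0, Krt10 and Lor were the most abundant, and the sums were 2.18 to 3.36 TPM in vehicle and 3.15 to 5.67 TPM in TCS. Named after their values were seen, Krt5, Krt14 and Lor were highest in TCS 2 and TCS 3, as Fabp5 was. Krt5 was at 1.6 and 0.564 TPM there and at 0.241 TPM or less elsewhere. Krt10 ran the other way within TCS, at 2.99, 2.3 and 1.58 TPM, and Trp63 was at 0.0335 TPM or less. Only Krt10 of the keratinocyte markers passed the filter on low values. Whether keratinocyte transcripts play a part in Fabp5 was not tested.

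Dbi, the acyl-CoA binding protein, which holds the product of the synthetases rather than the free acid (ENSMUSG00000026385, chromosome 1 from 120113280 to 120121078, minus strand), was at 698, 830 and 861 TPM in vehicle and at 974, 1340 and 1360 TPM in TCS. TCS 1 was the nearest to the vehicle samples, at 1.13 times the highest of them, and the other TCS samples were close to each other. The log2 fold change was 0.61 with a standard error of 0.15 (95% interval 0.24 to 0.98, adjusted p = 0.112 from limma). In TPM, which allows levels of genes of different length to be compared, the order in vehicle livers ran from Fabp1 at 10580 ± 3007 over Slc27a2 at 922 ± 164 and Dbi at 796 ± 86.6 to Acsl5 at 139 ± 15 and Fabp5 at 137 ± 13 (SD, n = 3 each). Slc27a2 and Dbi overlapped in that group, as did Acsl5 with Fabp5 and Fabp4 with Fabp2. In TCS livers the mean of Dbi was 1225 ± 217 and that of Slc27a2 949 ± 30.3 TPM (SD, n = 3 each), and Dbi exceeded Slc27a2 in all 3 samples. Whether these orders differ between the groups was not tested. Fabp1 made up 96.9% to 98.0% of the summed TPM of the 10 genes of the FABP family in vehicle and 97.4% to 98.5% in TCS.

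The activating enzymes are described last. Acsl3, a long-chain acyl-CoA synthetase of the endoplasmic reticulum and the surface of lipid droplets (ENSMUSG00000032883, chromosome 1 from 78657825 to 78707743, plus strand), was at 10.8, 8.63 and 13.1 TPM in vehicle and at 21.4, 24.9 and 28.9 TPM in TCS. The groups were well apart, the lowest TCS sample at 1.63 times the highest vehicle sample, the widest gap among the 10 genes. The group means were 10.8 ± 2.24 and 25.1 ± 3.75 TPM (SD, n = 3 each), a ratio of 2.31. The log2 fold change of 1.15 with a standard error of 0.17 (95% interval 0.74 to 1.55) was also the largest of the members and exceeded that of the median gene by 1.02, while the adjusted p of 0.0625 from limma missed the threshold. It passed in 2 of the 17 alternatives, when genes under 5 TPM were left out and when samples were weighted by their quality. In the others it missed the threshold, with an adjusted p from limma of up to 0.235. With quality weights 1006 of all genes tested were called higher, against 11 without them. The log2 fold change of Acsl3 was 1.28 without vehicle 3 and TCS 2.

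Acsl5, a synthetase of mitochondria and endoplasmic reticulum (ENSMUSG00000024981, chromosome 19 from 55251938 to 55297720, plus strand), was at 125, 138 and 155 TPM in vehicle and at 173, 249 and 241 TPM in TCS. TCS 1 lay at 1.12 times the highest vehicle sample and well below the other TCS samples. Its log2 fold change was 0.65 with a standard error of 0.16 (95% interval 0.27 to 1.03, adjusted p = 0.109 from limma). Some exon sequence is shared with other genes: Acsl5 overlaps Zdhhc6 on the opposite strand over 169 bases, and Acsl3 overlaps exons of Utp14b on its own strand. The longest alignment between transcripts of Acsl3 and Utp14b had 98.2% identity over 221 bases. Whether that is the overlapping stretch was not examined. Zdhhc6 and Utp14b reached at most 35.1 and 2.76 TPM. Acsl5 also aligned to Rrp1b with 95.3% identity over 106 bases, and Rrp1b reached at most 4.89 TPM. Slc27a2 overlaps Gm26697 on the opposite strand, which reached at most 0.457 TPM, each of these maxima being over the 6 samples. According to the methods, HOMER quantified reads by strand in RefSeq exons and gave FPKM, but the step from there to TPM under Ensembl identifiers is not described. How reads from the shared stretches were assigned in the TPM values is therefore not known.

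Across the ACSL family, whose 5 genes include Acsl6 at 0 TPM, the summed level was 364, 419 and 444 TPM in vehicle and 563, 676 and 716 TPM in TCS. The groups were apart in this total. Acsl1, the most abundant form in liver, held between 54.2% and 59.0% of it in all samples and Acsl5 between 30.7% and 36.9%. Acsl3 held 2.97%, 2.06% and 2.95% in vehicle and 3.80%, 3.69% and 4.04% in TCS. The ratio of Acsl3 to Acsl5 was 0.0864, 0.0625 and 0.0845 in vehicle and 0.124, 0.1 and 0.12 in TCS, so the groups did not overlap in it. Acsl3 is the member with the largest log2 fold change, and how often ratios of other genes separate the groups was not counted. With 3 samples per group an exact two-sided permutation test cannot give a p below 0.1, and none was run.

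**Figure D4:**
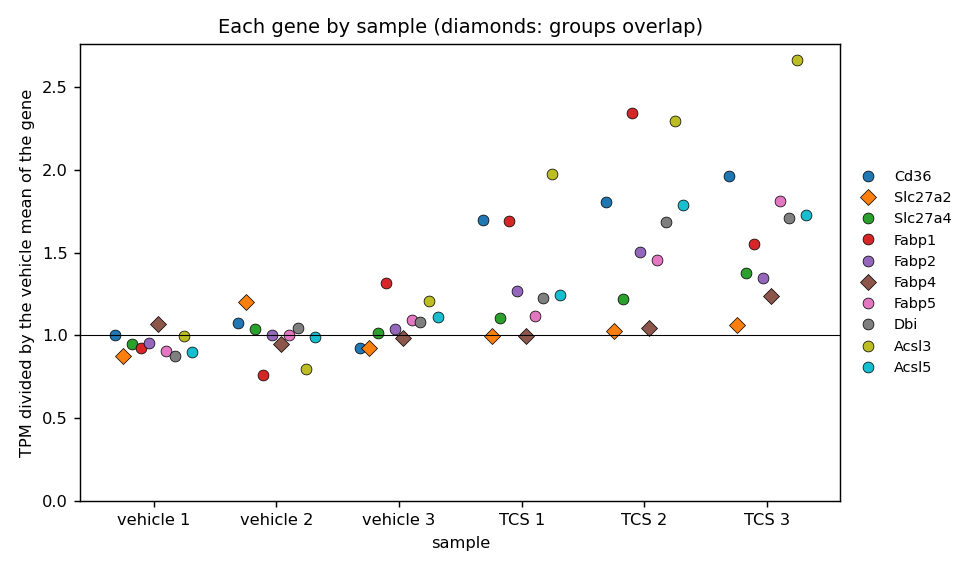
Each column is a sample and each coloured marker a gene, placed by its TPM divided by the mean of that gene in the vehicle samples on a linear axis that starts at 0, with a line at 1. Diamonds mark Fabp4 and Slc27a2, in which the groups overlap, and in 9 of the 10 genes TCS 1 is the lowest of the TCS samples. The TPM shown are not rescaled between samples.

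The samples of a group kept a rough order over the genes. TCS 1 was the lowest TCS sample in 9 of the 10 genes, the exception being Fabp1, and TCS 3 was the highest in 7. Vehicle 3 was the highest vehicle sample in 6 genes and vehicle 1 the lowest in 6. The size factors of median-of-ratios scaling were 0.928, 0.939 and 0.983 in the vehicle samples and 1.00, 1.06 and 1.11 in TCS 1, 2 and 3, so they were lowest in TCS 1 and highest in TCS 3 among the TCS samples. After scaling by them TCS 3 was the lowest TCS sample for Fabp1, Fabp2 and Slc27a2. For Fabp4 it was TCS 2, at 58.9 scaled TPM against 59 in TCS 1. The order above is thus that of unscaled TPM, and the share of all genes that follow it was not counted. Summed without Fabp1, the other 9 members were at 1912, 2370 and 2177 TPM in vehicle and at 2421, 2955 and 3064 TPM in TCS. All 10 together made up 1.17%, 1.04% and 1.61% of all TPM in vehicle and 2.03%, 2.78% and 1.95% in TCS. Without vehicle 3 and TCS 2 no gene at all passed the threshold of limma, with 1514 genes higher and 352 lower at an unadjusted p under 0.05. The log2 fold changes of the members in that comparison stayed positive, from 0.0071 for Slc27a2 to 1.28 for Acsl3. 
Samples of like Xist level were set side by side as vehicle 2 with TCS 1 (low), vehicle 1 with TCS 3 (middle) and vehicle 3 with TCS 2 (high), which gives ratios of 1 sample to 1 sample and no test. The TCS sample was the higher for 9, 10 and 10 of the 10 genes in the low, middle and high pair, where 61.5%, 75.7% and 65.9% of all genes tested were higher. The exception was Slc27a2 in the low pair, with a ratio of 0.830. Cd36 had ratios of 1.58, 1.96 and 1.96, and Acsl3 had 2.48, 2.68 and 1.90. Fabp1 had ratios of 2.23, 1.67 and 1.78, while the median ratio of all genes was 1.07, 1.19 and 1.08. The middle pair was the furthest apart for Fabp5, Dbi and Acsl5, at 2, 1.95 and 1.93, and the low pair the closest, at 1.12, 1.17 and 1.25. With Xist as a covariate in limma the log2 fold changes remained positive, from 0.04 for Slc27a2 over 0.94 for Fabp1 to 1.17 for Acsl3, and that of Cd36 was 0.84.

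The lists of other genes of the pathway held 38 genes that are not members, 24 of which passed the filter on low values. None passed limma's threshold, while 11 of the 24 were higher and 0 lower at an unadjusted p under 0.05, where 19.5% and 3.50% of all genes tested were. Their median log2 fold change was 0.31, between that of the members and that of all genes. For 7 further uptake genes the median was 0.19. Lpl, the lipase that frees fatty acids from circulating triglyceride, showed a difference of 0.19 on the log2 scale (limma, adjusted p = 0.479). The differences were -0.13 for Slc27a5 (limma, adjusted p = 0.412) and 0.17 for Got2, a mitochondrial aminotransferase also known as a fatty acid binding protein of the plasma membrane (limma, adjusted p = 0.206).

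For 7 further binding proteins the median was 0.40. Scp2, sterol carrier protein 2, which also binds fatty acids and acyl-CoA, was at 1710, 1660 and 1820 TPM in vehicle and at 2030, 2200 and 2230 TPM in TCS. Its groups did not overlap and its log2 fold change was 0.32 with a standard error of 0.07 (adjusted p = 0.0989 from limma). Acbd5, a peroxisomal membrane protein with an acyl-CoA binding domain, differed by 0.49 on the log2 scale (limma, adjusted p = 0.114) and its relative Acbd4 by 0.40 (limma, adjusted p = 0.137).

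For 10 further activating enzymes the median was 0.42. Acsl1, which supplies acyl-CoA to oxidation and to triglyceride synthesis, was at 201, 247 and 247 TPM in vehicle and at 332, 366 and 406 TPM in TCS. Its groups were clearly apart, its log2 fold change was 0.67 with a standard error of 0.11, and its adjusted p of 0.0819 from limma missed the threshold. The medium-chain synthetases Acsm1 and Acsm3 had log2 fold changes of 0.29 (adjusted p = 0.137) and -0.20 (adjusted p = 0.322), again from limma. Acsl4, named here after its values were seen because it completes the family, was at 27.5, 25.7 and 28.6 TPM in vehicle and at 36.3, 35.9 and 39.8 TPM in TCS, a difference of 0.44 on the log2 scale (limma, adjusted p = 0.0847).

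**Figure D5:**
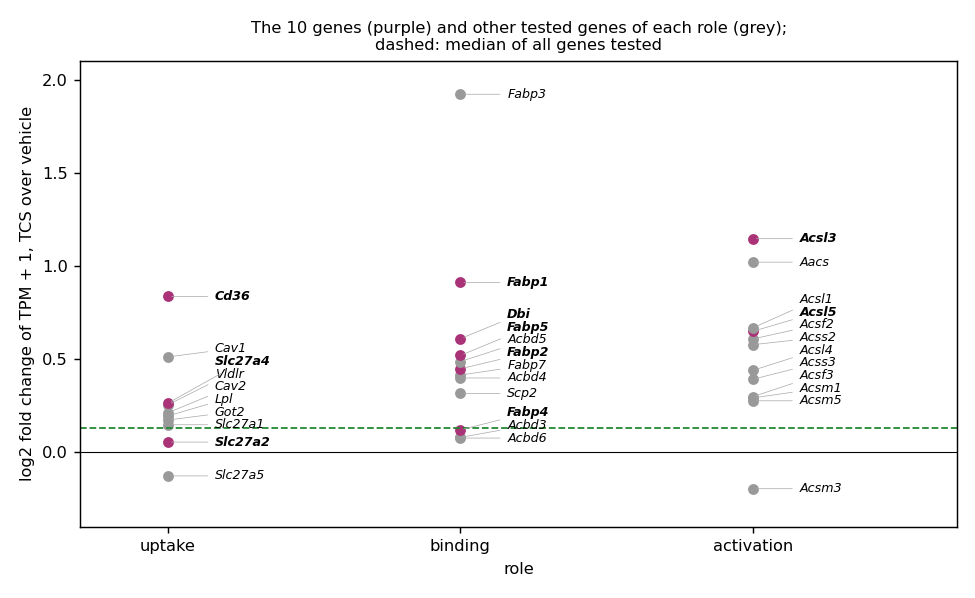
Points give the log2 fold change of TPM + 1, TCS over vehicle, of the 10 members (purple, bold) and the 24 tested other genes of uptake, binding and activation (grey), in a column for each role, with the dashed line at the median of all genes tested (0.13). The medians of the grey genes are 0.19 for uptake, 0.40 for binding and 0.42 for activation, and that of the members is 0.56.

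Transcription factors and cofactors known to act on such genes were listed apart, 19 in all, and all 19 passed the filter. Srebf1, which encodes the SREBP1 regulators of fatty acid synthesis, was the only one of them to pass the threshold. It was at 47.3, 45.0 and 57.4 TPM in vehicle and at 104, 104 and 116 TPM in TCS, and rose by 1.10 on the log2 scale with a standard error of 0.11 (adjusted p = 0.0350 from limma). The TCS samples all lay well above the vehicle samples. Its call ended wherever limma called 0 genes higher. This was so without the filter on low values, with the column number as a block, without TCS 2, without TCS 3, and without vehicle 3 and TCS 2. Limma called 1 gene higher without vehicle 1, without TCS 1 and with Xist as a covariate. Whether Srebf1 kept its call there, or under the remaining alternatives, is not given here. The median log2 fold change of the list was 0.03, with 3 of the 19 genes higher and 3 lower at an unadjusted p under 0.05. Of all genes tested, 19.5% were higher and 3.5% lower at that p from limma. The 3 most abundant of the list had log2 fold changes of -0.19 for the nuclear receptor Nr1i3 (adjusted p = 0.583), 0.13 for Creb3l3 (adjusted p = 0.634) and -0.18 for Hnf4a (adjusted p = 0.311), all from limma.

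Some members of that list are named after their values were seen. Ppara, the receptor known to bind the element type shown above, was at 82.3, 116 and 87.9 TPM in vehicle and at 85.1, 90.9 and 88.3 TPM in TCS, and the TCS samples lay within the vehicle range (log2 fold change -0.10, adjusted p = 0.670 from limma). Ppargc1a, a coactivator of PPARα, was at 13.5, 17.2 and 8.97 TPM in vehicle and at 3.94, 4.56 and 4.76 TPM in TCS. Its groups did not overlap, and its log2 fold change of -1.35 missed the threshold (adjusted p = 0.0795 from limma). Levels of a message do not measure the activity of the protein, and no activity was measured here.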

How the data were processed

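Liver RNA libraries made with the Illumina TruSeq kit were sequenced on a NovaSeq. The submitters' processing notes name bcl2fastq 2.17.1.14, STAR 2.2.0c, HOMER and mm10. The authors deposited TPM per gene under Ensembl identifiers, rounded to 3 significant digits. The methods describe FPKM from strand-specific reads over RefSeq exons, and the step that made TPM is not given in the sources used here. Since TPM are not counts, no count test was run and depth is unknown. A second deposited table, of the authors' log2 fold changes and adjusted p-values, was not used.

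Log2(TPM + 1) of genes that held 1 TPM or more in 3 or more samples was fitted with limma 3.58.1 (trend; R 4.3.3), vehicle against TCS, and P adjusted by Benjamini-Hochberg. Coordinates came from GENCODE M21, near copies from BLAST 2.17.0 (at least 95% identity over 100 bases) and upstream windows from RefSeq. The script was tested on simulated data. Members and lists were chosen with earlier results of these data known. Named genes were the members, and of the other lists those past the threshold and the 3 most abundant (2 for marker lists). The muscle list, the comparison without vehicle 3 and TCS 2, the Xist covariate and the sets of like Xist level were added after seeing the data.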

Additional observations from a re-analysis of the deposited data

How the results depend on the processing

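Of all genes tested, limma called 11 higher and 12 lower. The counts were 0 and 0 without the filter on low values (3123 and 714 at an unadjusted p under 0.05), 35 and 24 with a filter at 5 TPM, 1006 and 234 with samples weighted by quality, 10 and 18 after median-of-ratios scaling, and 8 and 20 after quantile scaling. Unadjusted counts were 2597 and 466, against 1107 and 1195 after median-of-ratios scaling. The adjusted calls were 0 to 22 higher and 0 to 13 lower with 1 sample left out at a time, 0 and 0 without vehicle 3 and TCS 2, and 1 and 3 with Xist as a covariate. Among the 10 genes, 1 was called (Cd36), 2 with the filter at 5 TPM (Acsl3 and Cd36), 6 with quality weights (Acsl3, Acsl5, Cd36, Dbi, Fabp1 and Fabp2), and 0 without the filter, after median-of-ratios or quantile scaling, without the mean trend, with any 1 sample left out (0 to 0), without vehicle 3 and TCS 2 and with the Xist covariate. Of the other pathway genes 8 were called with quality weights, against 0. The adjusted p of Cd36 was 0.0899 without the filter, 0.0583 and 0.0522 after the scalings by median of ratios and quantiles, 0.0558 without the trend and 0.0764 with the Xist covariate. Slc27a2 changed sign to -0.10 and Fabp4 to -0.0307 after median-of-ratios scaling, and with 1 sample left out at a time Slc27a2 ran from -0.0354 (without vehicle replicate 1) to 0.195. All other members stayed above 0 under all 17 alternatives. Column numbers are in no sample label, so they pair nothing. A fit with the number as a replicate block called 0 genes higher and 0 lower (2622 and 448 unadjusted) and 0 of the 10 genes, with an adjusted p of 0.109 for Cd36, and samples of the same number did not deviate together (correlations -0.0096, -0.253 and -0.0705). Depth is unknown, so no counting error could be set beside the spread of 3 pools, and pooling hides the spread between animals.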

Other observations

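Fabp3, the heart and skeletal muscle form of the fatty acid binding proteins, was not among the 10 genes and was named after its values were seen. It was at 14.9, 0.293 and 2.71 TPM in vehicle and at 4.98, 27.6 and 23.2 TPM in TCS, so it was high in 1 vehicle and 2 TCS samples and the groups overlapped. Its log2 fold change of 1.92 had a standard error of 1.00 (adjusted p = 0.292 from limma). The same samples were those highest in skeletal muscle transcripts, led by Acta1 and Tnnt3, at 305 TPM in vehicle 1, 450.9 TPM in TCS 2 and 355 TPM in TCS 3. Cd36, which muscle also makes, was at 21.5, 23.1 and 19.8 TPM in vehicle, where the muscle sums were 305, 9.51 and 50.3 TPM. In TCS it was at 36.4, 38.8 and 42.1 TPM, where they were 90.7, 450.9 and 355 TPM. Within TCS the sample lowest in muscle transcripts was also the lowest in Cd36. Within vehicle the sample lowest in muscle transcripts was the highest in Cd36. The part of these transcripts in the other results was not tested.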
